A study of Mus musculus with 3 samples.

Results

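The cytoplasmic ribosomal protein genes were followed in dissociated mouse skin across 3 ages and across the cell classes of the tissue. They were taken by symbol (Rpl or Rps followed by a digit, Rplp0 to Rplp2, and Rpsa, without pseudogene symbols and the Rps6k kinases), which gave 87 of the 27998 genes in the files. Of these, 43 encode large subunit proteins, 31 small subunit proteins and 3 the proteins of the stalk. Another 9 are close copies of a ribosomal protein gene, of which Rpl6l is annotated as a processed pseudogene. Rps19bp1, taken in by its symbol, encodes an Rps19-binding protein of the nucleolus and no part of the ribosome. The genes lie on 19 chromosomes, and 85 of them reached 10 CPM (UMIs of a gene in the summed class, per 1e+06 UMIs) in at least 1 summed cell class. The other 2 were Rpl3l, known from striated muscle, with 14 unique molecular identifier (UMI) counts in all kept cells, and Rpl10l, known from testis, with 0. Fau, whose ribosomal protein is made fused to a ubiquitin-like protein, lies outside the symbol rule and is given with the other translation genes.

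A ribosome carries one copy of most of these proteins beside its ribosomal RNA, and the genes are transcribed at high rates in every cell. In mammals their transcripts typically begin with a cytosine followed by a run of pyrimidines, the terminal oligopyrimidine (TOP) motif, through which mTOR signalling and the protein Larp1 control their translation together. The stalk proteins recruit elongation factors to the large subunit. In skin, demand for protein synthesis differs between keratinocytes, which renew the epidermis, and dermal fibroblasts, which lay down the collagen matrix.

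The samples were dorsal skin of C57BL/6 mice at 3 ages, neonatal, 3 weeks (the young adult group of the design) and 2 months (the mature adult group), with 1 droplet 3' single-cell RNA library for each. The series as a whole concerns IL-1 and WNT signals in the dermal adipocyte lineage. No allele, transgene or treatment is named for any group, cells were freed with collagenase D and DNase1, and the number of animals behind a library is not given in the sources used here. The libraries held 84086755, 113874172 and 98432611 UMIs, and 7911, 8900 and 9332 cells passed the filters, with median depths of 8685, 11142.5 and 8529.5 UMIs per cell. The libraries shared between 23 and 31 cell barcodes in pairs.

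Cells were placed in classes by 8 marker genes for each class, none of them a ribosomal protein gene, and a class is named after its markers with the suffix -like. The keratinocyte-like class held 315, 1466 and 1863 cells, the fibroblast-like class 5354, 5358 and 4451, and 9 other classes reached 20 cells in at least 1 library. Between 2 and 6 of the 10 leading genes of each class were its own markers, and 0 were markers of another class. In the neonatal Schwann-like class the summed Schwann markers, 9424 CPM, were little above the fibroblast markers, 7641 CPM, while they stood at 77530 and 4206 CPM at 3 weeks and at 65757 and 2377 CPM at 2 months. With 1 library per age no difference between ages was tested, and intervals given for 1 library are 95% intervals for counting error only. Where classes are tested against each other the 3 libraries are the replicates, and they also differ in age. The gene-by-gene tests of classes came from 1 fit over all class profiles with the library as a block. Their p-values thus measure spread over class and library profiles, pooled over all classes, after differences between libraries are taken out.

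Part of the genes carry the motif that the group is known for at their annotated transcription start. Start windows from RefSeq (GRCm38.p6) were at hand for 66 of the 87 genes. A cytosine followed by at least 4 pyrimidines stood exactly at an annotated start in 14 of these 66 (21.2%), against 3.01% of 27025 genes, on the strand of the gene. It began within 5 bases of the start in 45.5% of the 66, against 21.2% of all genes. The motif CCGGAAG, searched on both strands in the 300-base promoter window, was present in 39.4% of the 66 and in 9.93% of all genes. TATAAA, searched the same way, was present in 10.6% of the 66 and in 15.7% of all genes. These letters describe the windows and were not tied to any level. Below are 15 bases before and 20 bases from the annotated start for some of the genes named in the results. The pyrimidine run at the start is in capitals, and most of the windows shown carry it, unlike most of the 66 genes. Rps27 was the most lowered member in 3-week fibroblast-like cells and Rps27rt is its retrogene copy, Rps18 was among the genes most raised in keratinocyte-like cells, Rpl38 did not pass the test there, and Rps6 and Rplp2 stand for the S6 kinase target and the stalk. Rpl39 and its copy Rpl39l, which differed most between classes, have no such run at their annotated starts. The same holds for Rps19, the gene most raised in keratinocyte-like cells, and for Rplp0, Rps12 and Rps2, whose windows are not shown.
Rps27, chr3:90213629-90213663, minus strand: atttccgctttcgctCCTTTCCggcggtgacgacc
Rps27rt, chr9:114982720-114982754, minus strand: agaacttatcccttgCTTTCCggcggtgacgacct
Rps18, chr17:33955646-33955680, minus strand: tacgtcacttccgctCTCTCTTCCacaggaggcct
Rpl38, chr11:114668565-114668599, plus strand: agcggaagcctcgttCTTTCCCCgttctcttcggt
Rps6, chr4:86857348-86857382, minus strand: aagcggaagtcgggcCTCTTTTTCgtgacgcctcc
Rplp2, chr7:141447636-141447670, plus strand: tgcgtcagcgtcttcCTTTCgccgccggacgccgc
Rpl39, chrX:37085203-37085237, minus strand: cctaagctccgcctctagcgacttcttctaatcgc
Rpl39l, chr16:10170213-10170247, plus strand: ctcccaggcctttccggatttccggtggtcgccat

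The share of all UMIs that fell on the 87 genes differed between classes, and in each of the 9 classes with a neonatal value it was highest in the neonatal library. Keratinocyte-like cells stood at 27.3% in the neonatal library, 24.5% at 3 weeks and 24.1% at 2 months. In fibroblast-like cells the share was 24.1%, 10.8% and 10.4% in the same order, so the neonatal library lay far above both later ones there. Muscle progenitor-like cells had the highest share of any class in the neonatal and 3-week libraries, 37.9% and 26.3%, and 24.1% at 2 months, from 21, 72 and 33 cells. Their own markers summed to 1627, 1714 and 3020 CPM, beside mural markers of 1303, 2192 and 1882 CPM and fibroblast markers of 1249, 1907 and 1229 CPM, whose part in the share was not tested. Lymphocyte-like cells had 27.5%, 17.1% and 19.0%, and endothelial-like cells, which line vessels, had 23.2%, 14.9% and 15.1%. The contractile mural-like cells of vessel walls had 20.5%, 11.9% and 9.93%, and macrophage-like cells 15.5%, 12.1% and 12.7%. Mast-like cells had 13.7% in the neonatal library and 6.07% at 3 weeks. Schwann-like cells, the glia of skin nerves, had 19.3%, 7.91% and 8.11%, above the neonatal macrophage-like cells but below them in both later libraries. Dendritic-like cells had 15.4% at 3 weeks and 20.7% at 2 months, and melanocyte-like cells 23.2% and 16.7%, each from 21 to 89 cells. The counting interval of a share was narrow even in the smallest classes, 37.7% to 38.1% for the 21 neonatal muscle progenitor-like cells, and holds no error between animals.

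**Figure D1:**
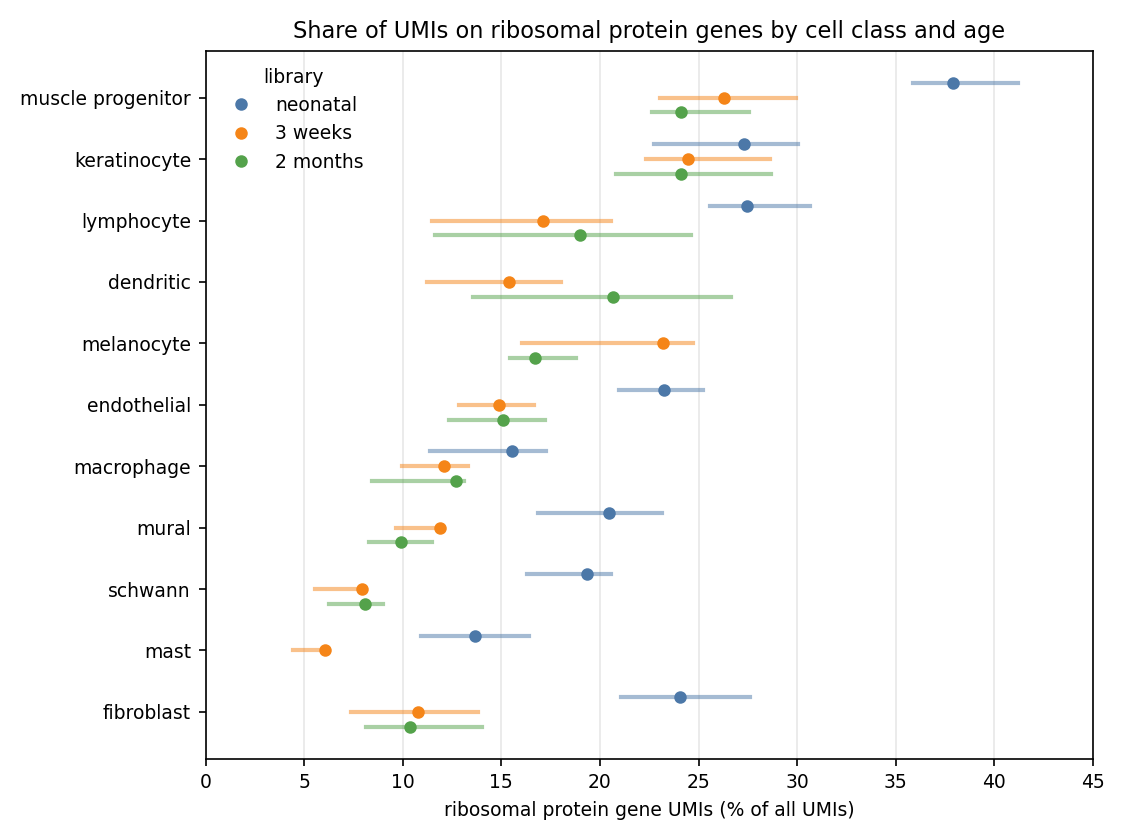
Share of all UMIs on the 87 ribosomal protein genes (horizontal axis, %) for each cell class (rows) and library (colours). Points are the summed share of a class in a library and bars span the lower to the upper quartile over its cells. Keratinocyte-like cells stay between 24.1% and 27.3%, while fibroblast-like cells sit at 24.1% in the neonatal library and at 10.8% and 10.4% later.

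Set against fibroblast-like cells within each library, keratinocyte-like cells had a share higher by 10.2 ± 6.07 percentage points (SD, n = 3 libraries; higher in 3 of 3). The exact two-sided sign-flip permutation test gave p = 0.25, the smallest value that 3 libraries allow. Muscle progenitor-like cells were higher by 14.4 ± 0.998 points and lymphocyte-like cells by 6.12 ± 2.60 points, each in 3 of 3 libraries. Schwann-like cells differed by -3.29 ± 1.29 points and were lower in 3 of 3 (exact permutation p = 0.25 for each of these classes). Endothelial-like cells differed by 2.65 ± 3.03 points (exact permutation p = 0.5), mural-like cells by -0.98 ± 2.39 points (p = 0.75) and macrophage-like cells by -1.64 ± 6.00 points (p = 1), and in these classes the sign was not the same in every library. None of the 7 tests could pass 0.05, with or without adjustment. The keratinocyte difference was 3.22 points in the neonatal library, 13.7 at 3 weeks and 13.7 at 2 months.

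The difference between ages in fibroblast-like cells ran through most of the cells. The median cell had a share of 24.2% in the neonatal library, 10.2% at 3 weeks and 10.8% at 2 months. Of the 3-week keratinocyte-like cells 46.1% lay above the neonatal median of their class, and of the 3-week fibroblast-like cells 1.61%. Fibroblast-like cells of the neonatal library had a median of 2269.5 UMIs on these genes and 7056.5 on all others, 3-week cells had 1141 and 11165.5, and 2-month cells 1179 and 9337. These counts per cell were not scaled for depth between libraries, and the part of each in the lower share was not tested. Keratinocyte-like medians were 4519 and 12879 in the neonatal library, 3123 and 8901 at 3 weeks, and 2576 and 8200 at 2 months. The 33 other genes that passed 1% of UMIs in a class, collagens and Dcn among them, took 10.6% of fibroblast-like UMIs in the neonatal library, 25.3% at 3 weeks and 27.5% at 2 months. Without them and without mitochondrial and haemoglobin genes the share was 27.9%, 14.99% and 14.8%, so the 3-week to neonatal ratio was 0.537 in place of 0.447. Split by depth into 3 equal parts, neonatal fibroblast-like cells had median shares of 24.8%, 24.7% and 23.2% from the shallowest to the deepest part. The 3-week parts had 12.2%, 8.74% and 9.46%, and the 2-month parts 13.3%, 12.4% and 8.03%, each below every neonatal part. After thinning each cell to 1500 UMIs, the median keratinocyte-like cell held a UMI of 76, 75 and 74 of the 87 genes at the 3 ages, and the median fibroblast-like cell of 75, 62 and 63.

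Large and small subunit genes stayed in nearly the same balance in both classes. Of the ribosomal protein UMIs of keratinocyte-like cells, small subunit genes made up 44.2%, 44.2% and 44.6% at the 3 ages. The corresponding fibroblast-like values were 43.1%, 43.3% and 43.3%.

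Gene by gene, 77 of the 84 ribosomal protein genes measured at 10 CPM or more were lower by at least 1.5-fold in 3-week than in neonatal fibroblast-like cells, and 0 were higher. Over all 8450 genes measured 25.6% were lower and 15.3% higher by that fold, and the median log2 ratio was -1.19 over the ribosomal protein genes and -0.19 over all genes. The lower genes were 42 of 43 large subunit genes, 31 of 31 small subunit genes and 3 of 3 stalk genes, but 1 of the 6 copies measured. Between 3 weeks and 2 months 3 of 84 were lower (10.5% of all genes) and 0 higher (7.76%). The 3 were Rpl22l1, Rps19bp1 and Rps2, with log2 ratios of -0.72, -0.65 and -0.63, and the median was -0.04. Between the neonatal and the 2-month library 81 of 84 were lower at 2 months (34.9% of all genes) and 0 higher (17.2%).

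**Figure D2:**
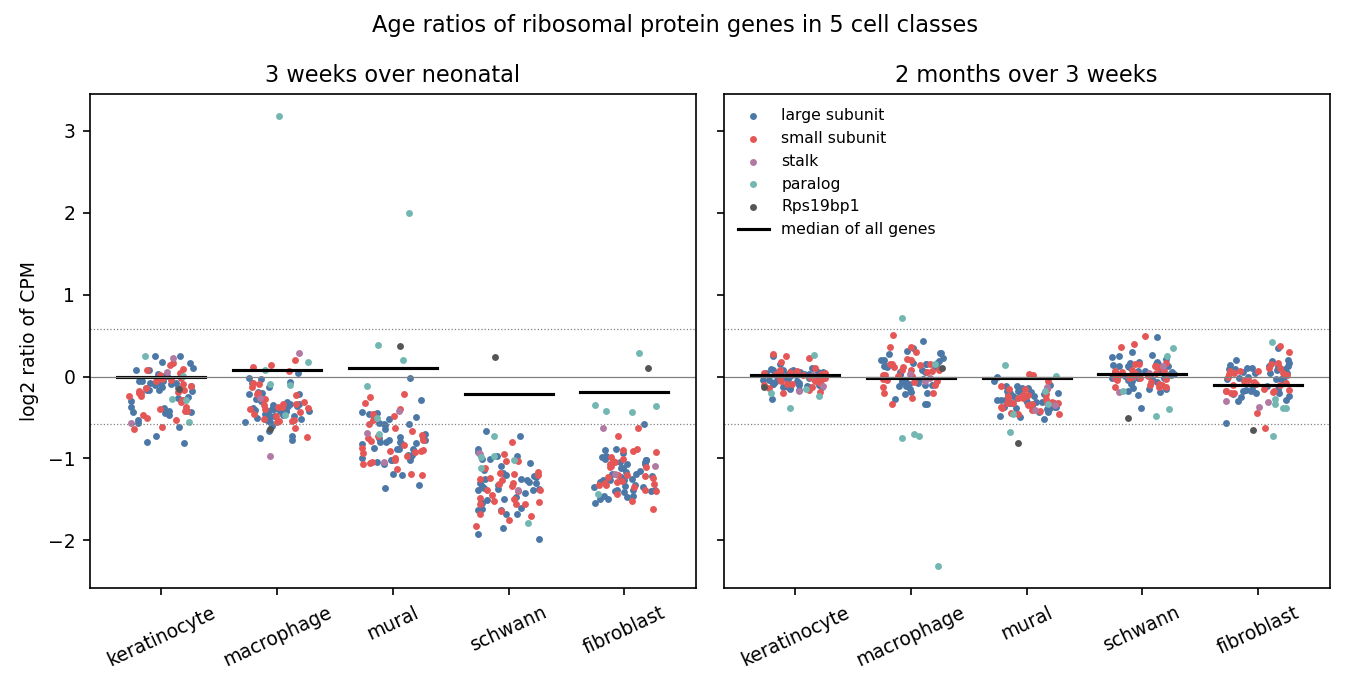
Log2 ratio of CPM (vertical axis) of each ribosomal protein gene in 5 cell classes, for 3 weeks over neonatal (left) and 2 months over 3 weeks (right). Points are genes coloured by group, black lines the median of all genes measured, dotted lines the 1.5-fold limits. Keratinocyte-like genes lie near 0 on the left, Schwann-like and fibroblast-like genes mostly below the limit with medians of -1.31 and -1.19, and few genes leave the limits on the right.

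Among the small subunit genes Rps27 had the lowest 3-week to neonatal ratio in fibroblast-like cells. It stood at 1889 CPM in the neonatal library (interval 1878 to 1901), 614 at 3 weeks (interval 608 to 620) and 796 at 2 months (interval 788 to 804). Its 3-week to neonatal log2 ratio was -1.62, and its 2-month to 3-week ratio, 0.37, was among the highest of the group. Reads of Rps27 and Rps27rt are hard to tell apart because the copies are near-identical, and Rps27rt followed the same course with 96.4, 35.7 and 47.7 CPM. Rps19, mutated in Diamond-Blackfan anaemia in humans and needed to mature the small subunit, had 4041, 1414 and 1228 CPM (3-week to neonatal log2 ratio -1.52). Rps6, the target of S6 kinases, had 1382, 731 and 683 CPM, and Rpsa, also known as the laminin receptor, had 4402, 2225 and 1957 CPM. Rps2 was lower at each later age, with 5187, 3345 and 2165 CPM. Rps3a1 had 4941 CPM in the neonatal library, 2397 at 3 weeks and 2952 at 2 months, a 2-month to 3-week log2 ratio of 0.30.

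Large subunit and stalk genes showed the same step. Rpl29 had 3299 CPM in neonatal, 1136 in 3-week and 1109 in 2-month fibroblast-like cells (3-week to neonatal log2 ratio -1.54). Rpl36a had 1585, 561 and 505 CPM (-1.50), Rpl36 had 1929, 683 and 704 CPM (-1.50), and Rpl24, the gene of the Belly spot and tail mutant mouse, had 3034, 1092 and 1067 CPM (-1.47). In all 4 the neonatal value stood far above both later values, which lay close together. Rpl10, which in yeast joins the large subunit late, had 2625, 1406 and 1797 CPM and a 2-month to 3-week log2 ratio of 0.35. The stalk scaffold Rplp0 had 6842, 3002 and 2422 CPM, Rplp1 had 4386, 2834 and 2187 CPM and Rplp2 had 1502, 702 and 571 CPM.

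Of the 6 copies measured, Rps27rt was lower by 1.5-fold at 3 weeks, with a log2 ratio of -1.43, while the other 5 and Rps19bp1 stayed inside that limit. Rpl22l1, the copy of Rpl22, had 756 CPM in neonatal, 561 in 3-week and 340 in 2-month fibroblast-like cells, a 3-week to neonatal log2 ratio of -0.43. Rpl36al had 457, 341 and 261 CPM (-0.42), Rpl39l 56.6, 44.1 and 36.4 CPM (-0.36), and Rps27l, a target of p53 in human and mouse, 223, 176 and 139 CPM (-0.34). Rps19bp1 had 21.5, 23.1 and 14.7 CPM (0.10) and Rpl7l1 had 35.4, 43.2 and 33.2 CPM (0.29). At 2 months 5 of the 6 copies were lower than in the neonatal library by 1.5-fold, all but Rpl7l1. Rpl6l stayed under 10 CPM, with 6.14, 2.93 and 3.03 CPM. Several pseudogenes resemble these genes, and how the authors' counting divided reads between near-identical copies is not given in the sources used here.

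Other classes differed in the size of the step between the neonatal and the 3-week library. In keratinocyte-like cells 6 of 83 genes were lower by 1.5-fold (13.4% of all genes measured) and 0 higher (16.4%), with a median log2 ratio of -0.16. They were Rpl36 (-0.81), Rpl41 (-0.80), Rpl35 (-0.73), Rps27 (-0.62), Rpl38 (-0.62) and 1 further small subunit gene (-0.64). In these cells 0 passed the limit between 3 weeks and 2 months (4.1% of all genes lower, 6.94% higher). In Schwann-like cells 83 of 84 were lower (31.7% of all genes) and 0 higher (18.7%), with a median of -1.31, beside the marker values given above for the neonatal class, whose part in this result was not tested. In mural-like cells 58 of 84 were lower (19.7% of all genes) and 1 was higher (27.9%), Rpl39l, but with cells of at most 5% mitochondrial UMIs only, 9 were lower. In macrophage-like cells 9 of 84 were lower (17.8% of all genes) and 1, again Rpl39l, was higher (25.3%), with 16 UMIs at 3 weeks against 3 in the neonatal library. Between 3 weeks and 2 months 0 Schwann genes were lower and 0 higher (11.9% and 14.3% of all genes). In mural-like cells 2 were lower and 0 higher (13.8% and 13.5%), and in macrophage-like cells 4 were lower and 1 higher (16% and 21.1%). Against the neonatal library the 2-month library had 81 lower in Schwann-like cells (32.2% of all genes, 21.6% higher), 76 in mural-like cells (21.3%, 29% higher), 13 in macrophage-like cells (21.9%, 30.6% higher) and 7 in keratinocyte-like cells (16.4%, 19.9% higher), with 0 higher but for Rpl39l in mural-like cells. The ratios of the summed share, 3 weeks over neonatal, were 0.897 in keratinocyte-like, 0.779 in macrophage-like, 0.640 in endothelial-like, 0.623 in lymphocyte-like, 0.579 in mural-like, 0.447 in fibroblast-like and 0.409 in Schwann-like cells. Haemoglobin and other erythroid markers summed to 1205, 12855 and 9345 CPM in macrophage-like cells, to 45, 6842 and 4268 CPM in mural-like cells and to 919, 1918 and 352 CPM in fibroblast-like cells at the 3 ages. Their part in the shares was not tested.

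Tested across the 3 libraries, keratinocyte-like cells had more transcript of most ribosomal protein genes than fibroblast-like cells. With the edgeR quasi-likelihood test and Benjamini-Hochberg adjustment over 12604 genes, 71 of 85 were higher and 1 lower in keratinocyte-like cells at an adjusted p under 0.05, where 26.6% of all genes were higher and 20.2% lower. The median log2 fold change was 0.88 over these genes and 0.23 over all genes. With TMM factors 50 were higher (the share of all genes is not given for that fit). The median moved to 0.02 over all genes and to 0.68 over the ribosomal protein genes. The count rested on both later libraries: it was 80 without the neonatal library, 2 without the 3-week library and 5 without the 2-month library, and 9 without the library as a block. Over all genes 4314 of 12181, 1325 of 11860, 1641 of 11913 and 2523 of 12604 were higher in the same order, so in the last 3 settings a smaller share of the ribosomal protein genes than of all genes was called.

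**Figure D3:**
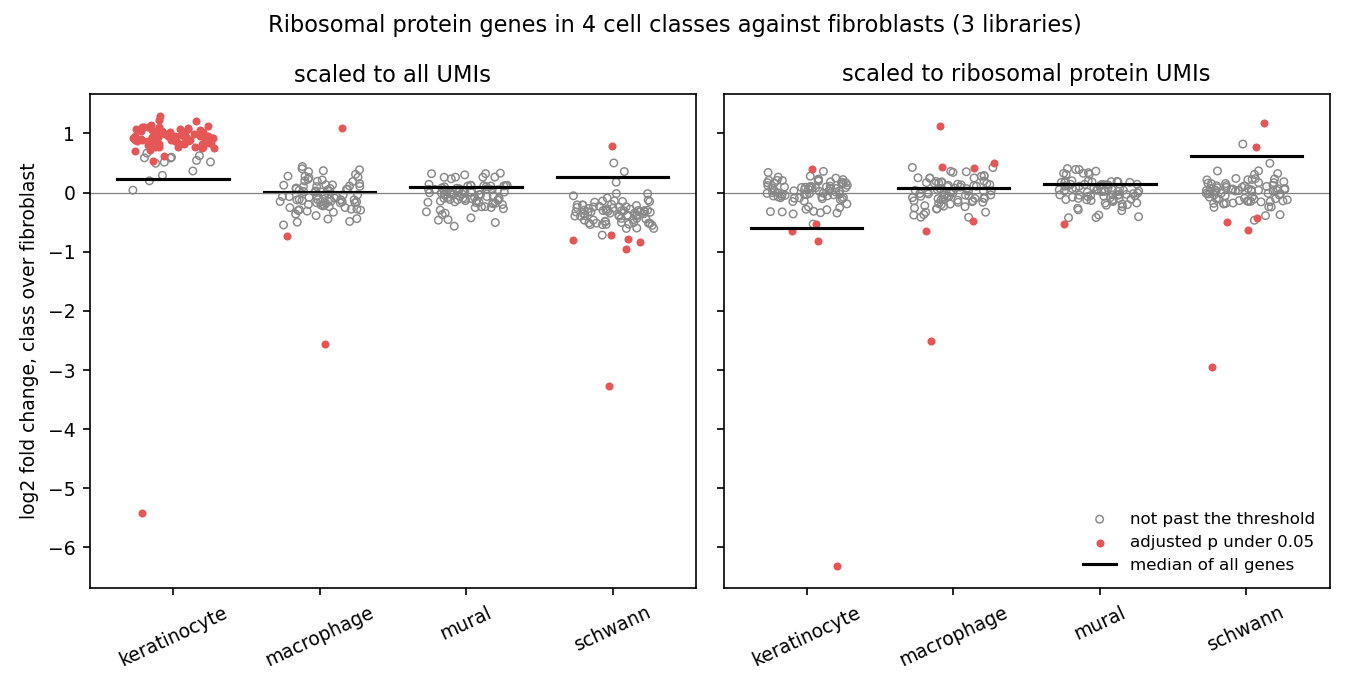
Log2 fold change against fibroblast-like cells (vertical axis) of each ribosomal protein gene in 4 cell classes, scaled to all UMIs (left) and to ribosomal protein UMIs (right), from edgeR over 3 libraries. Filled points passed an adjusted p of 0.05 and black lines are medians of all genes. On the left 72 of 85 genes are filled in keratinocyte-like cells, and on the right few genes leave the band around 0, with Rpl39l lowest in 3 classes.

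Rps19 was the gene most raised in keratinocyte-like cells. It had 5037, 4260 and 4518 CPM in keratinocyte-like cells of the neonatal, 3-week and 2-month libraries, against 4041, 1414 and 1228 CPM in fibroblast-like cells. Each keratinocyte value lay above the fibroblast value of its library, and the log2 fold change was 1.29 ± 0.28 (SE; edgeR adjusted p = 0.000617). Rps18 had 3792, 2826 and 2665 CPM in keratinocyte-like and 2397, 1040 and 907 CPM in fibroblast-like cells (1.23 ± 0.29, edgeR adjusted p = 0.00141). Rpl3, which lies near the peptidyl transferase centre, had 3310, 3193 and 3016 CPM in keratinocyte-like cells against 2379, 1183 and 1098 CPM in fibroblast-like cells (1.12 ± 0.21, edgeR adjusted p = 0.000144). Rps19bp1 also rose, to 49.4, 44.3 and 40.5 CPM against 21.5, 23.1 and 14.7 CPM, by a log2 fold change of 1.21. Rps7 and Rpl27 changed by 1.14 and 1.12, and the smallest changes that passed were 0.53 for Rps21, 0.63 for Rpl24, 0.71 for Rpl7a, 0.72 for Rpl35a, 0.75 for Rps27 and 0.76 for Rps15a.

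Of the stalk genes, Rplp0 and Rplp2 passed this test and Rplp1 fell just short. The stalk genes were not tested against each other, and none of them departed from the group on the scale of ribosomal protein UMIs below. Rplp0 had 7534, 7862 and 6977 CPM in keratinocyte-like cells against 6842, 3002 and 2422 CPM in fibroblast-like cells, a log2 fold change of 1.07 ± 0.27 (edgeR adjusted p = 0.00243). Rplp2 had 2228, 1509 and 1528 CPM against 1502, 702 and 571 CPM (1.01 ± 0.25, edgeR adjusted p = 0.00174). Rplp1 had 4249, 4975 and 4574 CPM against 4386, 2834 and 2187 CPM, and its change of 0.62 ± 0.26 did not pass (edgeR adjusted p = 0.0568). Rpsa (0.99) and Rps6 (0.94) passed. Of the 13 genes that passed in neither direction the smallest change was that of Rpl38, which in mouse is needed for axial patterning. It had 1689, 1101 and 1309 CPM in keratinocyte-like and 2165, 995 and 1038 CPM in fibroblast-like cells, a log2 fold change of 0.04 ± 0.25. The others were Rpl41, Rpl22l1, Rpl10, Rpl37a, Rps27rt, Rps29, Rpl7l1, Rps12, Rpl34, Rps28, Rplp1 and Rpl31, with changes between 0.20 and 0.67.

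With total UMIs as the scale, few of these genes passed the test of macrophage-like, mural-like or Schwann-like against fibroblast-like cells. The Schwann-like count depended strongly on the scale, as given below. In macrophage-like cells 1 of 85 was higher (18.1% of all genes) and 2 were lower (15.4%). Rps29, a small subunit protein, had 2662, 2946 and 3418 CPM in macrophage-like cells against 2273, 1082 and 1209 CPM in fibroblast-like cells (log2 fold change 1.09 ± 0.27, edgeR adjusted p = 0.0028). The lower ones were Rplp0, with 3520, 1797 and 1736 CPM against 6842, 3002 and 2422 CPM (-0.74 ± 0.27, edgeR adjusted p = 0.0359), and Rpl39l (-2.56 ± 0.66, edgeR adjusted p = 0.0045). Dendritic markers summed to 2847, 5112 and 21988 CPM in macrophage-like cells beside macrophage markers of 12830, 22634 and 22117 CPM, and their part in the result was not tested. Without the 3-week library 0 genes were higher and 1 was lower, and without the 2-month library 0 were higher and 0 lower. In mural-like cells 0 passed in either direction (13.8% and 8.07% of all genes), with 0 at an unadjusted p under 0.05 in edgeR. DESeq2 gave 0 higher and 7 lower, and the share of all genes is not given for that fit.

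In Schwann-like cells 6 genes were lower and 1 higher with total UMIs as the scale (9.38% and 19.4% of all genes), and the median was -0.33 against 0.26 over all genes. TMM factors shifted the median of all genes to -0.14 and that of the ribosomal protein genes to -0.73, and 56 were then lower and 0 higher. DESeq2 called 77 lower. The 6 were Rpl39l, Rps12, Rps20, Rps28, Rpl39 and Rpl38. Rps12 had 2701, 867 and 944 CPM in Schwann-like against 3799, 2306 and 2058 CPM in fibroblast-like cells (-0.96 ± 0.28, edgeR adjusted p = 0.0129), and Rps20 had 3493, 1088 and 999 CPM against 5210, 2247 and 1996 CPM (-0.83 ± 0.27, edgeR adjusted p = 0.0241). Rps28, Rpl39 and Rpl38 changed by -0.81, -0.78 and -0.72. Rps19bp1 was the 1 higher gene, by 0.79. Without the 3-week or without the 2-month library 1 gene was lower, and without the neonatal library, the one with the weak Schwann markers, 15 were. The shares of all genes given above are those of the full fit with total UMIs. None is given for the other settings, so their counts are not set against all genes.

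With the ribosomal protein UMIs as the scale, the test asks which genes departed from the group as a whole. Keratinocyte-like cells then had Rps19 higher by 0.41 and 4 genes lower, Rpl39l (-6.31), Rpl38 (-0.82 ± 0.18, edgeR adjusted p = 0.000496), Rpl41 (-0.64) and Rpl10 (-0.52), where 9.13% of all genes were higher and 36.7% lower. Macrophage-like cells had 4 higher, among them Rps29 (1.13 ± 0.18, edgeR adjusted p = 2.7e-05), Rps24 (0.43) and Rps9 (0.41), and 3 lower, Rpl39l (-2.50), Rplp0 (-0.65) and Rpl4 (-0.48), with 17.2% and 13.2% of all genes. Schwann-like cells had Rpl3 (0.76 ± 0.18, edgeR adjusted p = 0.0019) and Rps19bp1 (1.17) higher, and Rpl39l (-2.95), Rps12 (-0.64), Rps20 (-0.49) and Rpl39 (-0.43) lower, with 30.7% and 6.89% of all genes. Mural-like cells had Rps12 lower by 0.54 (log2 fold change -0.54 ± 0.17, edgeR adjusted p = 0.0282) and 0 higher, with 6.97% and 12.8% of all genes lower and higher. Rps12 had 2726, 1648 and 1204 CPM in mural-like cells. Without the 3-week library 1 gene was lower in each of the keratinocyte-like, macrophage-like and Schwann-like classes, and without the 2-month library the counts were 2, 0 and 1. The call of Rps12 in mural-like cells was lost without the 3-week and without the 2-month library, where 0 genes were lower.

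Within a class, states defined by other markers showed no single gene past the test. Cycling fibroblast-like cells had shares of 22.2% in the neonatal library and 12.7% at 3 weeks, against 24.3% and 10.6% in the other fibroblast-like cells. Cells with adipogenic markers had 25.4% and 14.5%, against 23.9% and 10.6%. Those with interstitial progenitor markers had 20.3%, 10.5% and 10.9% at the 3 ages, against 25.1%, 12.0% and 10.5%. Suprabasal keratinocyte-like cells had 26.5%, 23.3% and 21.7%, and basal ones 26.9%, 25.9% and 27.1%, so the gap was widest at 2 months. In each contrast 0 of 84 genes passed in either direction in edgeR and in DESeq2. At an unadjusted p under 0.05 in edgeR 2 were higher in cycling cells, 0 differed in adipogenic cells, and 3 were lower in progenitor cells and 3 in suprabasal cells. Of all genes 15.9%, 2.13%, 0.202% and 8.43% were called higher in these 4 contrasts, and 3.4%, 1.63%, 0.107% and 16.2% lower. With ribosomal protein UMIs as the scale 0 passed as well, where 10.8%, 0.495%, 2.95% and 9.43% of all genes were higher and 4.16%, 1.76%, 0.617% and 9.06% lower. On the first scale the median log2 fold changes of the ribosomal protein genes were 0.07, 0.27, -0.14 and -0.18. The cycling and adipogenic contrasts rest on 2 libraries, and 11 genes were lower in suprabasal cells without the neonatal library. The basal profile held 31 cells in that library, against 381 at 3 weeks and 585 at 2 months. The shares of all genes above are not those of the fit without it, so the 11 are not set against all genes.

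Rpl39l, a copy of Rpl39 known in mouse mainly from testis, had the largest change of the group in 3 of the 4 class contrasts. Keratinocyte-like cells had 0.87, 1.20 and 1.09 CPM in the neonatal, 3-week and 2-month libraries, from 7, 28 and 29 UMIs. Fibroblast-like cells had 56.6 CPM in the neonatal library (interval 54.6 to 58.6), 44.1 at 3 weeks (interval 42.5 to 45.7) and 36.4 at 2 months (interval 34.8 to 38.1). The log2 fold change of keratinocyte-like over fibroblast-like cells was -5.42 ± 0.65 (edgeR adjusted p = 1.4e-06), and the values of the 2 classes did not overlap. Fibroblast markers summed to 538, 1181 and 1152 CPM in keratinocyte-like cells, against 40824, 115754 and 114914 CPM in fibroblast-like cells, so a low level of fibroblast transcripts was present in the keratinocyte profiles too. Mural-like cells had 12.9, 51.4 and 37.6 CPM, close to fibroblast-like cells in the later libraries. Fibroblast markers of the mural-like class are not given here, and the part of fibroblast transcripts in its Rpl39l values was not tested. Schwann-like cells had 10.3, 1.0 and 2.1 CPM from 14, 1 and 3 UMIs, and macrophage-like cells 2.5, 22.3 and 3.0 CPM from 3, 16 and 2 UMIs. Dendritic-like, melanocyte-like and muscle progenitor-like cells had 0 UMIs. The floor of 3 counts corresponds to 4.57 CPM in the 3-week muscle progenitor-like cells and to 42.6 CPM in the 2-month melanocyte-like cells. The upper ends of the exact Poisson intervals lie above these values.

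**Figure D4:**
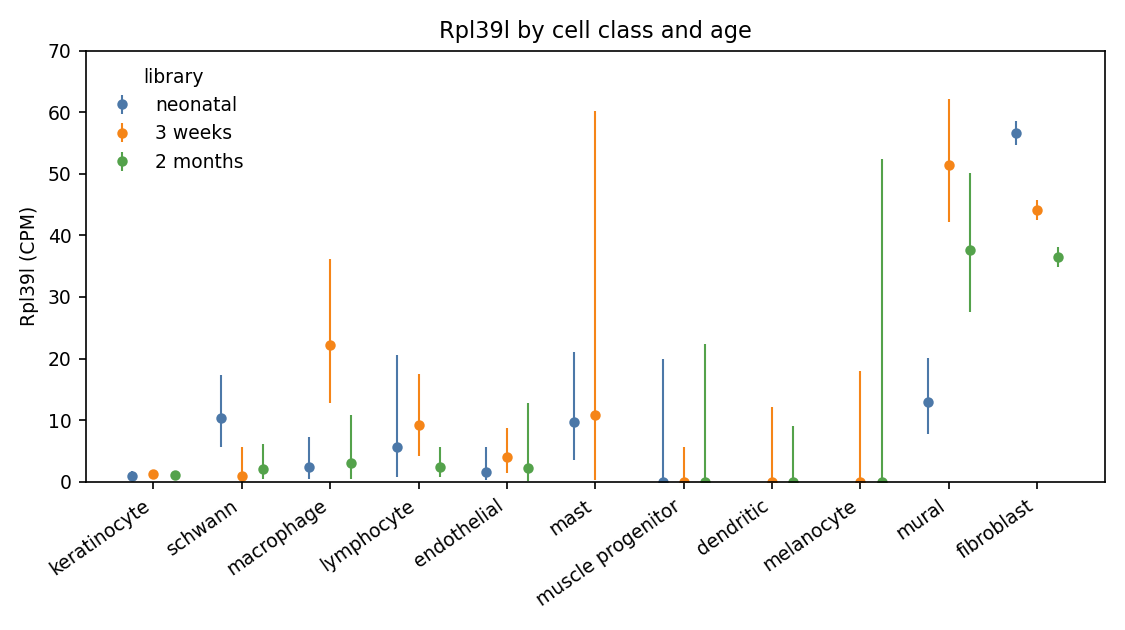
Rpl39l (vertical axis, CPM of the summed profile) in each cell class for the 3 libraries (colours). Bars are exact Poisson 95% intervals for counting error. Keratinocyte-like cells lie near 1 CPM, the later mural-like cells at 51.4 and 37.6 CPM and fibroblast-like cells between 36.4 and 56.6 CPM.

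After thinning to 1500 UMIs, 0 of 314 neonatal keratinocyte-like cells held a UMI of Rpl39l (a share of up to 0.955% is allowed by that count), and 0.14% and 0.11% did in the later libraries. In mural-like cells the shares were 3.06%, 6.06% and 4.0%, and in fibroblast-like cells 7.92%, 6.45% and 6.13%. As a share of the UMIs of Rpl39l and Rpl39 together, Rpl39l took 0.0259%, 0.0432% and 0.0390% in keratinocyte-like cells, against 1.61%, 3.21% and 2.89% in fibroblast-like cells. In mural-like cells it took 0.384% in the neonatal library, 3.79% at 3 weeks and 3.40% at 2 months.

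The other copies shifted against their partners between ages in some classes and little in others. Rpl22l1 took 32.96%, 25.04% and 21.99% of the UMIs of Rpl22l1 and Rpl22 in keratinocyte-like cells at the 3 ages. In mural-like cells it took 36.9%, 41.0% and 47.3%, and in macrophage-like cells 32.0%, 33.8% and 23.2%. In fibroblast-like cells it took 34.4%, 45.8% and 31.8%, highest at 3 weeks. Rps27l took 13.6%, 19.5% and 15.3% of its pair with Rps27 in the keratinocyte-like class and 10.6%, 22.3% and 14.9% in the fibroblast-like class, with the highest value at 3 weeks in both. Rpl36al took 34.7%, 37.4% and 36.9% of its pair with Rpl36a in the keratinocyte-like class, where the fibroblast-like class gave 22.4%, 37.8% and 34.1%. Rpl7l1 took 1.79%, 1.89% and 1.41% of its pair with Rpl7 in the keratinocyte-like class, where the fibroblast-like class gave 1.29%, 3.23% and 2.28%. These pair shares were not tested. Rpl3l, known from striated muscle, had 1, 4 and 2 of its 14 UMIs in mural-like cells of the 3 libraries.

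Other genes of translation were counted in the same profiles to place the ribosomal protein genes among them. In fibroblast-like cells 13 of 15 elongation factor and other TOP genes were lower by 1.5-fold at 3 weeks than in the neonatal library and 0 higher, with a median log2 ratio of -1.04. Eef2, which moves the ribosome along the message, had 1063 CPM at 3 weeks against 3054 CPM in the neonatal library, and Eef1a1, which delivers aminoacyl-tRNA, had 4501 against 10399 CPM. Fau had 1314 CPM at 3 weeks against 3558 CPM in the neonatal library. Over all genes 25.6% were lower and 15.3% higher. Of the initiation factors 10 of 27 were lower and 0 higher (median -0.31), and of the ribosome biogenesis genes 4 of 28 were lower and 0 higher (median -0.27), the second below the share of all genes. Of the mitochondrial ribosomal protein genes, which encode the separate ribosome of that organelle, 7 of 71 were lower and 4 higher (median -0.09). Growth signalling genes had 5 of 16 lower and 0 higher, p53 targets 2 of 10 lower and 2 higher, integrated stress genes 1 of 8 lower and 3 higher. By 2 months 19 of 27 initiation factors and 15 of 27 biogenesis genes were lower than in the neonatal library, where 34.9% of all genes were. Other classes differed. In 3-week Schwann-like cells 24 of 30 biogenesis genes were lower and 0 higher. Of their mitochondrial ribosomal protein genes 27 of 73 were lower and 3 higher (31.7% and 18.7% of all genes). Mural-like cells had 2 of 73 mitochondrial ribosomal protein genes lower and 41 higher (19.7% and 27.9% of all genes).

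**Figure D5:**
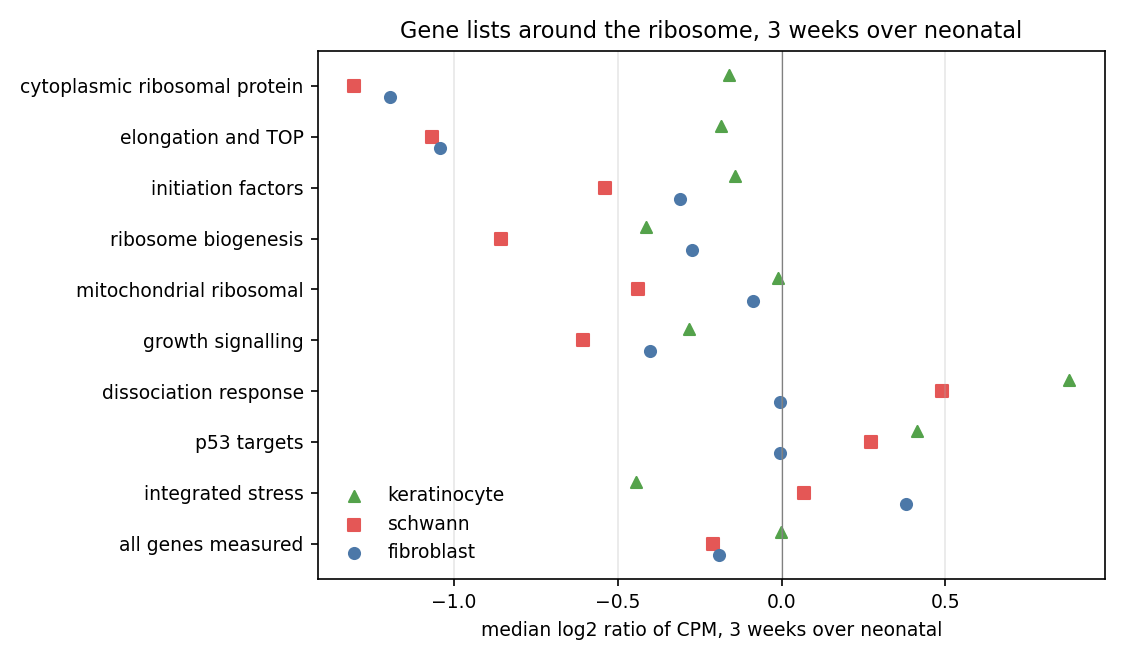
Median log2 ratio of CPM, 3 weeks over neonatal (horizontal axis), of each gene list (rows) in keratinocyte-like, Schwann-like and fibroblast-like cells. Points are medians over the list's genes measured at 10 CPM or more. In fibroblast-like cells the cytoplasmic ribosomal protein and TOP lists lie at -1.19 and -1.04, and the mitochondrial ribosomal list at -0.09.

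Keratinocyte-like cells showed 1 of 15 TOP genes and 7 of 32 biogenesis genes lower in the same comparison, where 13.4% of all genes were lower and 16.4% higher. Immediate early and heat shock genes, a marker of the response to dissociation, summed to 15724 CPM in the neonatal, 27617 in the 3-week and 37602 in the 2-month keratinocyte-like cells, and 11 of 16 were higher at 3 weeks, beside ribosomal protein shares of 27.3%, 24.5% and 24.1%. In fibroblast-like cells they summed to 26495, 28771 and 35379 CPM, and 4 of 16 were lower and 5 higher at 3 weeks. In macrophage-like cells they summed to 17219, 34612 and 48841 CPM, and 2 of 16 were lower and 11 higher at 3 weeks, where 17.8% and 25.3% of all genes were. Schwann-like sums were 14240, 21585 and 34492 CPM, with 1 of 16 lower and 7 higher at 3 weeks (31.7% and 18.7% of all genes). Mural-like sums were 18612, 13827 and 26144 CPM, with 7 of 16 lower and 1 higher (19.7% and 27.9%). The part of these immediate early and heat shock genes in the shares was not tested. In the test of keratinocyte-like against fibroblast-like cells 11 of 15 TOP genes, 20 of 27 initiation factors, 27 of 32 biogenesis genes and 35 of 76 mitochondrial ribosomal protein genes were higher and 0 were lower (edgeR, adjusted p under 0.05), where 26.6% of all genes were higher and 20.2% lower. With ribosomal protein UMIs as the scale 0, 0, 2 and 0 of these lists' genes were higher and 1, 1, 0 and 8 lower, against 9.13% and 36.7% of all genes. On the first scale biogenesis genes had a median log2 fold change of 1.32, mitochondrial ribosomal protein genes of 0.67 and all genes of 0.23.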

How the data were processed

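The deposited files held whole-number UMI counts per gene and barcode for 3 libraries, with no normalization by the authors; the submitters' processing notes list mm10 as the build, with Seurat 2.0 and Cell Ranger 3.0.2 as tools. The members and gene lists were chosen with earlier results of these data known. Kept barcodes had at least 300 genes and 500 UMIs, of which no more than 10% were mitochondrial. A marker was on in a cell with 1 or more UMIs at 0.25 or more of its share in the library, and a cell took the class with at least 4 markers on and 2 more than any other. Doublets were held apart by that gap only; Scrublet in scanpy 1.11.5 removed 475, 211 and 348 cells in an alternative, the first by highest score because its own threshold marked 0.0253% of the neonatal cells. Counts were summed per class and library (20 or more cells per profile; 50 in every library for the 4 classes tested gene by gene, while the states within a class and the tests of shares took profiles of 20 or more). edgeR 4.0.16 in R 4.3.3 fitted the quasi-likelihood model with total UMIs as library size, the library as a block and genes at 10 CPM or more in 2 profiles, checked on simulated data. The classes shared 1 fit over all class profiles, and each contrast of states within a class had its own. DESeq2 1.42.0, TMM factors, other gates and filters and leaving out each library were alternatives. Age ratios used CPM with exact Poisson 95% intervals, a filter of 10 CPM and a limit of 1.5-fold, with no test. Small counts were held to a floor of 3 counts. Shares of cells used cells thinned to 1500 UMIs. Named genes were the 6 of largest and the 6 of smallest change in each comparison, the stalk genes, Rpsa, Rps6, the copies with their partners, and Rps19bp1; the genes outside the largest and smallest that are named in the step between neonatal and 3-week keratinocytes, and those that passed no test, were chosen after their values were seen. Some genes in the counts are not reported here by name.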

Additional observations from a re-analysis of the deposited data

Results flagged for a closer look

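In 3 classes the difference in ribosomal protein share from fibroblast-like cells changed sign between libraries, and the difference between libraries was not tested. Endothelial-like minus fibroblast-like share was -0.83 percentage points in the neonatal library, 4.11 at 3 weeks and 4.67 at 2 months. Mural-like minus fibroblast-like share was -3.59, 1.10 and -0.46 points in the same order. Macrophage-like minus fibroblast-like share was -8.54, 1.34 and 2.30 points. In all 3 the fibroblast-like share was 24.1% in the neonatal library and 10.8% and 10.4% later. The 16 pseudogene symbols that were left out held UMIs equal to 0.0676% of the ribosomal protein UMIs in the neonatal library, 0.0723% at 3 weeks and 0.0772% at 2 months, above the limit that a count of 0 allows. Rpl10-ps3 held the most, 4104, 3805 and 4421 UMIs.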

How the results depend on the processing

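Direction and call of the named genes that passed a test between classes were recomputed under each alternative run for that test. None of these changed direction, but many lost their call. TMM factors, DESeq2 size factors and DESeq2 were not run on the scale of ribosomal protein UMIs, so they cover 22 of the named calls. Genes named for age ratios, or named without passing a test, were not followed one by one. Of 41 named calls, 33 were lost without the 3-week library, 32 without the 2-month library, 0 without the neonatal library, 29 without the library block, 20 in fits on the compared classes alone and 13 without the filter on low counts. The cause of the shifts below was not tested. Counts below are given without the share of all genes in the same setting and show only how far each count moved. Leaving out 1 library at a time gave counts of raised genes in keratinocyte-like cells of 2 to 80 (71 in the full fit), in macrophage-like cells of 0 to 6 and in Schwann-like cells of 0 to 1, and of lowered genes of 0 to 2 in macrophage-like and 1 to 15 in Schwann-like cells. On the scale of ribosomal protein UMIs the ranges were 0 to 1 higher and 1 to 8 lower in keratinocyte-like, 0 to 2 lower in mural-like, 1 to 4 higher and 0 to 4 lower in macrophage-like, and 0 to 4 higher and 1 to 6 lower in Schwann-like cells. In suprabasal cells they were 0 to 11 lower, and 0 to 4 higher and 0 to 1 lower on the second scale. TMM factors, DESeq2 size factors in edgeR and DESeq2 itself gave 3, 3 and 7 lower in mural-like, 6, 7 and 9 lower in macrophage-like, and 56, 64 and 77 lower and 0, 0 and 0 higher in Schwann-like cells, and DESeq2 size factors gave 45 higher in keratinocyte-like cells. Without the library block 9 were higher in keratinocyte-like cells, 0 higher and 1 lower in macrophage-like and 0 higher and 1 lower in Schwann-like cells, and on the second scale 0 and 2, 1 and 1, 1 and 2, and 0 lower in mural-like cells. Fits on the compared classes alone gave 19 higher in keratinocyte-like, 0 and 1 in macrophage-like and 10 lower in Schwann-like cells, and on the second scale 0 higher in keratinocyte-like, 1 and 1 in macrophage-like, 1 lower in Schwann-like and 0 lower in mural-like cells. Without the filter on low counts there were 1 higher in mural-like, 1 lower in macrophage-like, 0 higher in Schwann-like and 2 higher in cycling cells, and on the second scale 0 higher in keratinocyte-like, 1 higher and 0 lower in mural-like, 1 higher in macrophage-like and 2 lower in Schwann-like cells. Looser and stricter gates, Scrublet and a minimum of 1500 UMIs each gave 2 lower in mural-like cells on that scale. With at most 5% mitochondrial UMIs 1 gene was higher in mural-like cells, the mean mural difference in share was 2.33 points in place of -0.98, and at 3 weeks over neonatal 2 mural genes were higher and 9 lower, at 2 months over 3 weeks 1 higher and 14 lower. Without dominant genes the Schwann difference in share was -5.07 points. The log2 ratio of the fibroblast share, 3 weeks over neonatal, was -1.16, and -1.15 and -1.19 under the other gates, -1.17 without doublets, -1.17 with less mitochondrial RNA, -0.90 without dominant genes, -0.9996 with TMM factors and -1.13 as a mean over cells. For 2 months over neonatal it was -1.21, and -1.20, -1.24, -1.22, -1.22, -0.92, -0.94 and -1.09 in the same order. For 2 months over 3 weeks it was -0.051, and -0.045 under the looser gate, -0.059 without doublets, -0.047 with less mitochondrial RNA, -0.019 without dominant genes, but 0.060 with TMM factors and 0.037 as a mean over cells, so its direction is not fixed. At 2 months over 3 weeks TMM factors left 1 fibroblast gene lower at the 1.5-fold limit. A 2-fold limit left 0 fibroblast genes lower at 2 months over 3 weeks, 0 and 1 keratinocyte genes at 3 weeks and 2 months over neonatal, and 17, 0 and 43 mural genes at 3 weeks over neonatal, 2 months over 3 weeks and 2 months over neonatal. For macrophage genes it left 0 lower at 3 weeks over neonatal, 0 higher and 1 lower at 2 months over 3 weeks, and 2 lower at 2 months over neonatal; TMM factors gave 23 and 25 lower in the comparisons with neonatal, and means over cells 29 lower at 2 months over neonatal and 0 higher at 2 months over 3 weeks. A filter of 1 CPM added 1 higher gene in mural-like cells at 2 months over 3 weeks and 1 in macrophage-like cells at 2 months over neonatal, and the stricter gate, less mitochondrial RNA and means over cells each gave 1 higher in Schwann-like cells at 2 months over 3 weeks. Between ages no paired analysis was possible because the labels give no replicate numbers and each age has 1 library, whereas the tests between classes are paired within libraries. Depth limits Rpl3l, with 14 UMIs in all, and Rpl39l, which rests on 1 to 29 UMIs per library in keratinocyte-like, macrophage-like and Schwann-like cells.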
